A study of Mus musculus with 15 samples.

Results

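Cathepsins are the main proteases of the lysosome, and cystatins are the small proteins that block the cysteine members among them. The 10 genes described here are 8 cathepsins (Ctsd, Ctsa, Ctsb, Ctsl, Ctss, Ctsz, Ctsh and Ctsc) and 2 cystatins (Cst3 and Cstb). They are the rows of the deposited mouse brain expression table whose Ensembl identifiers carry those symbols, 10 of 65964 entries in all. Each was at 1 TPM or more in every one of the 15 libraries, so all 10 are among the 17505 entries that entered the tests. TPM is a transcript abundance corrected for transcript length and for library size, so levels can be compared between genes.

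The 5 groups of 3 libraries are named from the library titles. CTRL_L is labelled untreated. KA_L and KA_H are labelled as treated with KA, which is kainic acid, an agonist of kainate-type glutamate receptors used to induce seizures in rodents. APOE_L and APOE_H are labelled as treated with KA and APOE. Every library, the untreated ones included, is labelled C57BL/6, brain, and a model of temporal lobe epilepsy induced by KA. The labels define neither the letters L and H nor what was done to APOE, give no age, and say nothing of whether the libraries of a group are separate animals. P-values here are thus set against variation among the libraries of a group, and that variation could be technical. There was no untreated H group, so H can be compared with L only among libraries that received KA.

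As background, cathepsins are made as inactive precursors, reach the lysosome through the mannose 6-phosphate receptors and sortilin, and are activated by cleavage in its acid interior. Cathepsins B, C, H, L, S and Z are cysteine proteases of the papain family, cathepsin D is an aspartic protease, and cathepsin A is a serine carboxypeptidase that also protects other lysosomal enzymes. Cystatin C, the product of Cst3, is secreted and inhibits papain-type cathepsins outside cells and in the endocytic pathway. Cystatin B, the product of Cstb, does so in the cytosol, and loss of human CSTB causes a progressive myoclonus epilepsy. In the brain, microglia are rich in cathepsins S, B, D and Z. Cystatins do not inhibit cathepsin D or cathepsin A.

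Many lysosomal genes carry the E-box CACGTG near their start sites, often within the longer palindrome TCACGTGA, the core of the element bound by the transcription factor TFEB. The letters GAGGAAGT hold the GGAA core read by ETS factors such as the myeloid factor PU.1. Because several members differed together between groups, the 250 bases before each RefSeq start site (GRCm38.p6) were searched on both strands for these 3 motifs. RefSeq promoter entries were present for 7 of the 10 members, with 8 start sites. The windows of 30 bases below show each match, 5′ to 3′ on the gene's strand, with the motif in capitals. Their positions are chr7:142387908-142387937 and chr7:142388048-142388077 on the minus strand for Ctsd, chr2:164833743-164833772 on the plus strand for Ctsa, chr13:64370739-64370768 on the minus strand for Ctsl, and chr7:88277923-88277952 on the plus strand for Ctsc.
Ctsd, nearer site: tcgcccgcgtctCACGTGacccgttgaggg
Ctsd, farther site: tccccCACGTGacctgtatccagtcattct
Ctsa: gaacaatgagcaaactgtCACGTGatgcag
Ctsl: ggcgttagaagcCACGTGctgatctaaatt
Ctsc: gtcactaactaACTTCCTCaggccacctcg

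The E-box of Ctsd nearer the start site, 98 bases before it, and that of Ctsa, 12 bases before it, are each flanked by the letters that complete TCACGTGA. Of all 32851 promoters searched in the same way, 0.785% hold TCACGTGA, 6.02% hold CACGTG (a count that includes the longer palindrome) and 2.44% hold GAGGAAGT or its reverse complement ACTTCCTC. None of the 3 motifs was found in the 250 bases of Ctsz, Ctss or Cst3, or of the other Ctsa start site (chr2:164832622-164832871, plus strand). This says only that these letters are not in those windows. The windows of Ctsz (chr2:174439040-174439289, minus strand) and Ctss (chr3:95526536-95526785, plus strand) are shown whole, because one gene differed between APOE_H and APOE_L and the other did not pass the test there. No motif match here is evidence of binding.
Ctsz: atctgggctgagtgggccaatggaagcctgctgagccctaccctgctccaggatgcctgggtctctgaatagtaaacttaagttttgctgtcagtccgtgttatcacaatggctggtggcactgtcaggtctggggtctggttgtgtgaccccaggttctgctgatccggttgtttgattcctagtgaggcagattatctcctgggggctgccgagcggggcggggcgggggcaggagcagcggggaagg
Ctss: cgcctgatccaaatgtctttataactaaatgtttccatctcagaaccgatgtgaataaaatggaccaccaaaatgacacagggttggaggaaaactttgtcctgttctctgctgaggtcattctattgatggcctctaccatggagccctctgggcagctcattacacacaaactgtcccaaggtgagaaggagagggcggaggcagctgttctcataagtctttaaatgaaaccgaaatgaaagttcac

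The libraries have features that touch the results. All 18 microglia markers reached 1 TPM in every library, with a summed level of 16498 to 59164 TPM, whereas the 10 astrocyte markers summed to 42.7 to 335 TPM and the 10 neuron markers to 0.01 to 66.5 TPM. Gfap of astrocytes stood at a listed 0 in 11 libraries and Rbfox3, the neuronal NeuN gene, in 13. Of the 10 astrocyte markers, 5 passed the filter for testing and 1 reached 1 TPM in every library. Of the 10 neuron markers, 1 passed the filter and 0 reached 1 TPM in every library. CTRL_L replicate 1 stands apart from the other 2 controls, with the highest microglia sum and a choroid plexus sum of 139 TPM against 39615 and 24154 TPM. Apoe was at 161 to 889 TPM in CTRL_L, 1969.6 to 3262 TPM in KA_L and 8767 to 16636 TPM in KA_H. In APOE_L it was at 0.69 and 0.71 TPM and listed at 0 in replicate 3, and in APOE_H it was at 144, 6.49 and 12.4 TPM. The H libraries had 12801 to 15452 entries at 1 TPM or more and the L libraries 9931 to 12085, and the part of that difference in the H against L results was not tested.

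Ctsd, encoding cathepsin D, the aspartic protease that starts the breakdown of many proteins in the lysosome, had the largest difference of the 10 members between APOE_H and APOE_L. In APOE_H its level was 24881, 10229.9 and 26090.1 TPM. In the other groups it was 4209, 1355 and 1812 TPM (CTRL_L), 2316, 2481 and 1446 TPM (KA_L), 4975, 3721 and 3803 TPM (KA_H), and 2057, 1524 and 2321 TPM (APOE_L). Each APOE_H library was therefore above all 12 others, the highest of which was KA_H replicate 1, and the next group in order, KA_H, overlapped with CTRL_L. Ctsd rose in APOE_H against APOE_L by 3.28 on the log2(TPM + 1) scale (SE 0.39, adjusted p = 0.000417 by limma), a ratio of means of 10.4. It also rose in APOE_H against KA_H, by 2.19 (SE 0.39, adjusted p = 0.0167). The latter call was lost without KA_H replicate 2 (adjusted p = 0.0743), without APOE_H replicate 1 (0.0764) and without APOE_H replicate 3 (0.0883), the log2 fold change staying between 1.54 and 2.63 and the adjusted p between 0.0051 and 0.371 over 17 alternatives.

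Ctsa, encoding cathepsin A, the carboxypeptidase that stabilises β-galactosidase and neuraminidase, was also highest in APOE_H, at a lower level than Ctsd. It was at 1219, 814 and 787 TPM in APOE_H and at 159, 215 and 136 TPM in APOE_L. KA_H held 387, 243 and 232 TPM, KA_L 227, 204 and 170.1 TPM, and CTRL_L 492, 174 and 235 TPM. All 3 APOE_H libraries lay above the other 12, and CTRL_L overlapped with KA_H. Ctsa rose in APOE_H against APOE_L by 2.45 on the log2 scale (SE 0.47, limma adjusted p = 0.00729). Against KA_H the difference was 1.72 (SE 0.47, adjusted p = 0.19) and did not pass.

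**Figure D1:**
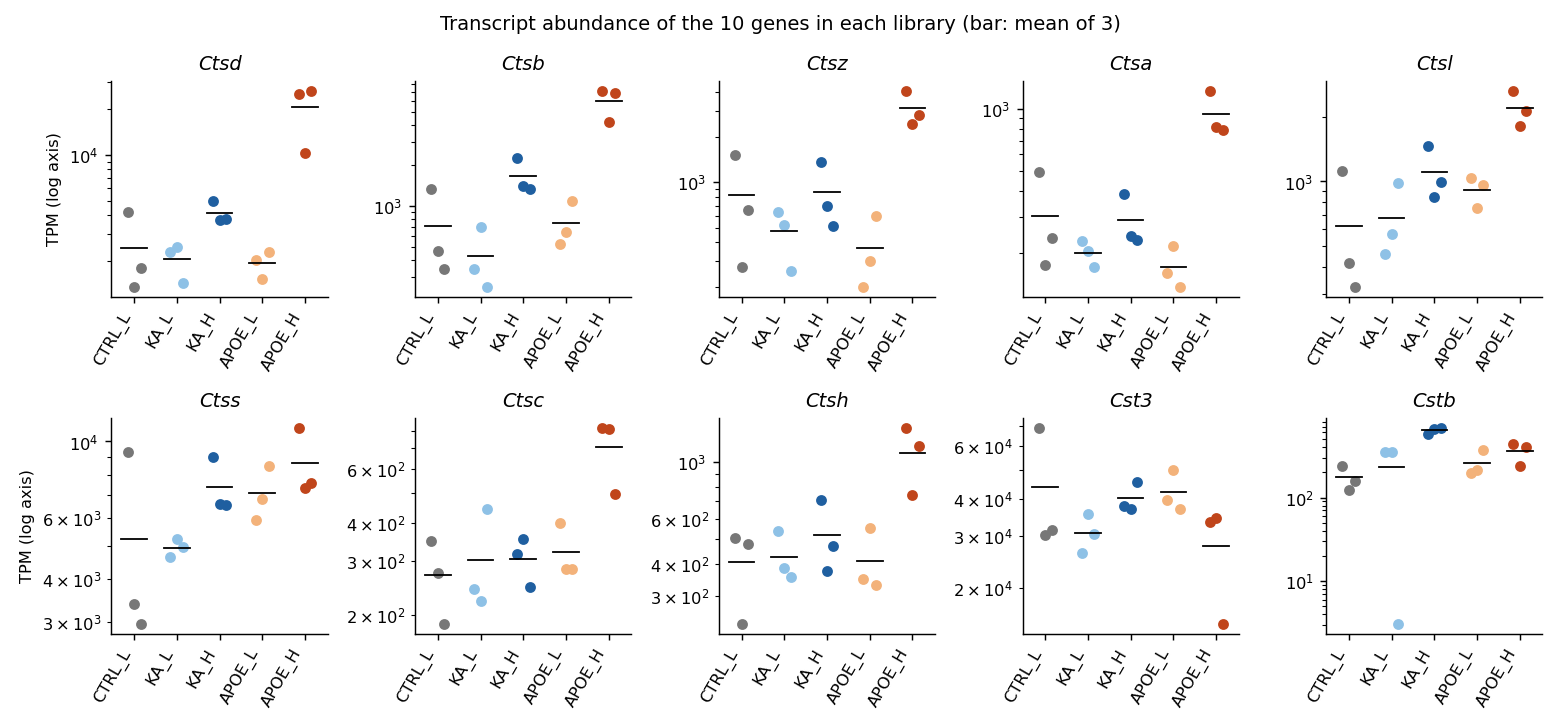
TPM of each of the 10 genes on a log axis (vertical) in the 15 libraries, by group (horizontal); points are libraries and bars the mean of 3. Ctsd, Ctsb, Ctsz, Ctsa, Ctsl, Ctsc and Ctsh are higher in each APOE_H library than in all 12 others, whereas Ctss, Cst3 and Cstb are not. The share of all tested entries with that pattern was not counted. The axes start at different values.

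Ctsb, encoding cathepsin B, a cysteine protease that cuts within chains and also trims their ends, was higher in each H group than in the L group of the same treatment. Its level was 7129, 4170.3 and 6840.4 TPM in APOE_H and 2249.7, 1413 and 1336 TPM in KA_H. The L groups held 1343, 465 and 344 TPM (CTRL_L), 339, 694 and 250.3 TPM (KA_L), and 525, 641 and 1096 TPM (APOE_L). APOE_H did not overlap with KA_H, KA_H did not overlap with APOE_L or KA_L, and KA_H replicate 3 lay just below CTRL_L replicate 1. Ctsb rose in APOE_H against APOE_L by 3.03 on the log2 scale (SE 0.49, limma adjusted p = 0.00327) and in KA_H against KA_L by 2.05 (SE 0.49, adjusted p = 0.0463). The second call is fragile: among the fits that left out 1 library it held without KA_L replicate 2 (0.0231) and was lost without any other KA_L or KA_H library (adjusted p 0.0861 to 0.16). Over all 17 alternatives that adjusted p ran from 0.0141 to 0.226.

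Ctsz, encoding cathepsin Z (also called cathepsin X), a carboxypeptidase, was at 4077, 2453 and 2826 TPM in APOE_H. APOE_L held 200.2, 298 and 601 TPM and KA_H 1376, 700.1 and 514 TPM. KA_L held 634, 524 and 257 TPM and CTRL_L 1529, 272 and 654 TPM. APOE_H was again above every other library, and the other 4 groups overlapped with their neighbours in order. The rise in APOE_H against APOE_L was 3.20 on the log2 scale (SE 0.58, limma adjusted p = 0.00616), and the difference from KA_H was 1.94 (SE 0.58, adjusted p = 0.256), which did not pass.

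Ctsl, encoding cathepsin L, a broad endopeptidase, was at 2631, 1807 and 2121 TPM in APOE_H and 1464, 844 and 996 TPM in KA_H. APOE_L held 1037, 753 and 959 TPM, KA_L 464, 573 and 985 TPM, and CTRL_L 1124, 418 and 323 TPM. The APOE_H libraries lay above all others, but the log2 difference from APOE_L, 1.25 (SE 0.43), missed the threshold (limma adjusted p = 0.0954). Ctsh, encoding the aminopeptidase cathepsin H, was at 1363, 744 and 1149 TPM in APOE_H and between 232 and 711 TPM in the other 12 libraries. Ctsc, encoding cathepsin C, the dipeptidyl peptidase that activates serine proteases of granules, was at 819, 809 and 498 TPM in APOE_H and between 187 and 444 TPM elsewhere. Neither passed in APOE_H against APOE_L, with 1.40 (SE 0.43, adjusted p = 0.0639) for Ctsh and 1.12 (SE 0.44, adjusted p = 0.143) for Ctsc. Their lowest APOE_H libraries sat close above the highest of the others, at 744 against 711 TPM for Ctsh and 498 against 444 TPM for Ctsc.

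Ctss, encoding cathepsin S, a protease that stays active at neutral pH and processes the invariant chain, was the most abundant cathepsin by mean level and the only one of the 8 whose APOE_H libraries were not all above the other 12. It was at 10970.3, 7355 and 7602 TPM in APOE_H and 9025, 6608 and 6562 TPM in KA_H. APOE_L held 5947, 6808 and 8514 TPM, KA_L 4628, 5211 and 4940.1 TPM, and CTRL_L 9296, 3392 and 2967 TPM. Every neighbouring pair of groups overlapped. How many of all tested entries had every APOE_H library above the other 12 was not counted. In APOE_H against APOE_L, 60.25% of all tested entries had a positive difference. The difference between APOE_H and APOE_L was 0.28 on the log2 scale (SE 0.31, limma adjusted p = 0.649), which does not show that the groups were alike. Without CTRL_L replicate 1, Ctss was higher in KA_H than in CTRL_L by 1.21 (adjusted p = 0.0173). With that library the difference was 0.69 (adjusted p = 0.45), and over 17 alternatives the adjusted p ran from 0.0173 to 0.878.

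Cst3, the cystatin C gene, had the highest mean of all named genes and did not rise in APOE_H. Its level was 33415, 34425 and 15149 TPM in APOE_H and 39705, 49839.8 and 36819.7 TPM in APOE_L. KA_H held 37859.8, 36765 and 45644 TPM, KA_L 26204, 35535 and 30302 TPM, and CTRL_L 69311, 30168 and 31371 TPM. All 3 APOE_H libraries were below all 3 of APOE_L and all 3 of KA_H, and overlapped with KA_L. The share of all tested entries that separated in these ways was not counted. The log2 difference was -0.69 against APOE_L (SE 0.29, limma adjusted p = 0.179) and -0.62 against KA_H (SE 0.29, adjusted p = 0.579), and neither passed. APOE_H replicate 3 carried much of it: without that library the differences were -0.30 and -0.23. When each library was instead centred on its microglia markers, Cst3 fell in APOE_H by 1.19 against APOE_L (adjusted p = 0.00816) and by 1.27 against KA_H (adjusted p = 0.0158). The same centring lowered the median of all tested entries, from 0.54 to 0.04 against APOE_L and from 0.25 to -0.40 against KA_H. Against KA_H, 1 entry was then called higher and 28 lower. Over 17 alternatives each, the adjusted p ran from 0.00816 to 0.605 against APOE_L and from 0.0158 to 0.969 against KA_H.

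Cstb, the cystatin B gene, was highest in KA_H, at 576, 663 and 687 TPM. APOE_H held 431, 236 and 404 TPM, APOE_L 196, 216 and 367 TPM, and CTRL_L 237, 125 and 159 TPM. KA_L was split, with 354 and 347 TPM in replicates 1 and 2 and 3.08 TPM in replicate 3. The 3 KA_H libraries were above all 12 others. No comparison of Cstb passed: KA_H against KA_L gave 3.01 on the log2 scale with a wide error (SE 1.15, limma adjusted p = 0.228), and without KA_L replicate 3 it was 0.87 (adjusted p = 0.482).

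Read by comparison, limma called 4 of the 10 members in APOE_H against APOE_L and at most 1 in each of the other 5 contrasts of 2 groups that were run. In APOE_H against APOE_L, 4 of 10 rose (Ctsd, Ctsz, Ctsb and Ctsa) and none fell, where 4.7% of all tested entries were called higher. The members were chosen with earlier results of these data known, and that share is not matched for level. Setting the count beside the share therefore does not test the set. The median log2 difference was 1.32 over the 10 members and 1.93 over the 8 cathepsins, against 0.54 over all tested entries. Those 4 genes were called in each of the 17 alternatives. In APOE_H against KA_H, 1 of 10 rose (Ctsd), where 0.36% of all entries were called higher. There 8 had an unadjusted p under 0.05, beside 1510 of all 17505 entries. In KA_H against KA_L, 1 of 10 rose (Ctsb), where 1.23% of all entries were called higher. There 3 were under 0.05 unadjusted, beside 2595 of all 17505 entries.

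No member was called by limma in the other 3 contrasts of 2 groups that were run; APOE_H and APOE_L were not tested against CTRL_L. KA_L against CTRL_L gave 0 of 10 (0.571% of all entries called in either direction), with 0 under 0.05 unadjusted, beside 1945 of 17505 entries. The median log2 difference was -0.26 over the members there, and 0.20 without CTRL_L replicate 1, so its sign rests on that library. KA_H against CTRL_L gave 0 of 10 (0.377% of all entries called) with 4 under 0.05 unadjusted, beside 1830 of 17505 entries. APOE_L against KA_L gave 0 of 10 (0.0457% called) with 0 unadjusted, beside 1373 of 17505 entries. With so few entries called in these contrasts, a count of 0 of 10 is near the background and is not a result about these genes. Ctss and Cst3 were higher in all 3 APOE_L libraries than in all 3 of KA_L, by 0.51 (SE 0.31, limma adjusted p = 0.784) and 0.46 (SE 0.29, adjusted p = 0.808) on the log2 scale, and neither passed. The share of all tested entries whose libraries separated fully in this contrast was not counted, so the separation is only a description.

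Averaged over KA and APOE, H libraries were compared with L libraries, using the same 12 libraries as the contrasts above. Here 5 of 10 rose, where 7.72% of all entries were called higher: Ctsb by 2.54 (SE 0.35, limma adjusted p = 0.000364), Ctsd by 2.15 (SE 0.28, 0.00024), Ctsz by 2.02 (SE 0.41, 0.0059), Ctsa by 1.47 (SE 0.33, 0.0103) and Ctsl by 1.00 (SE 0.30, 0.0454). Ctsl was called in 7 of 23 alternatives, and its adjusted p ran from 0.0136 to 0.213. APOE against KA averaged over both letters gave 0 of 10 by limma (0.0171% of all entries called). There 5 were under 0.05 unadjusted, beside 1440 of all 17505 entries. The interaction asks whether the APOE difference is larger in H than in L. It gave 0 of 10 by limma (0.0457% called) with 4 under 0.05 unadjusted, beside 1456 of all 17505 entries. For Ctsd it was 2.25 (SE 0.55, adjusted p = 0.201), so a different size of the APOE difference in H and L was not shown for any member.

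**Figure D2:**
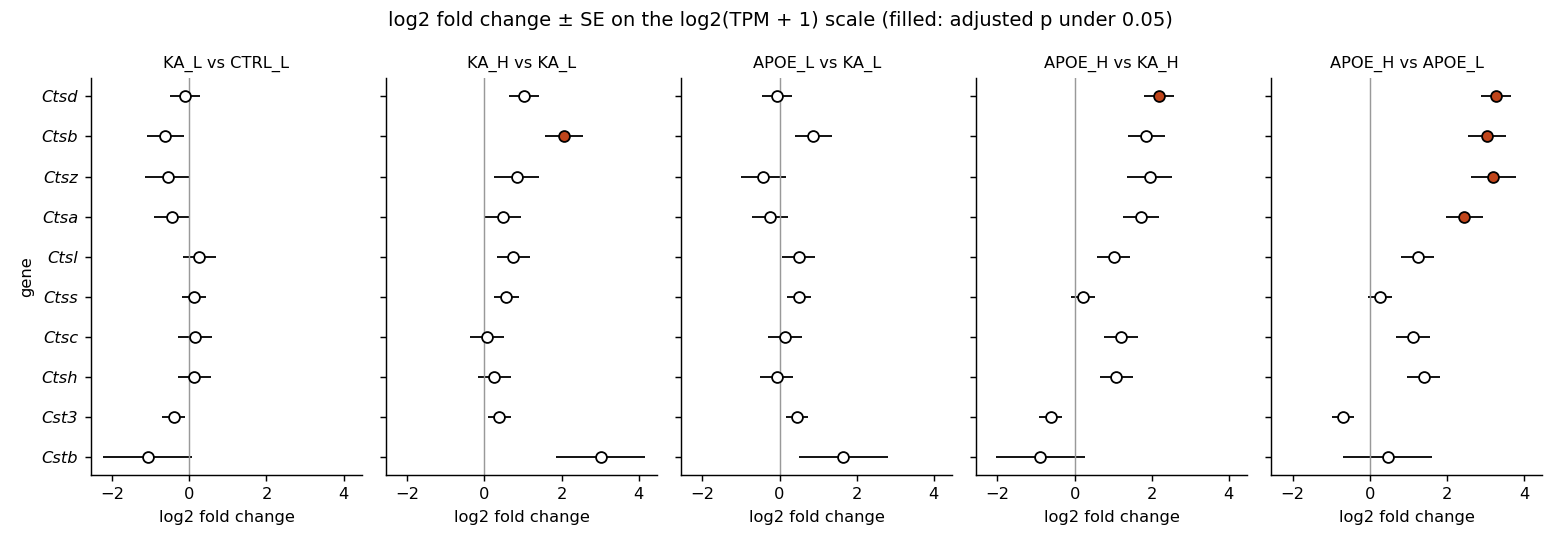
Log2 fold change on the log2(TPM + 1) scale (horizontal) of each gene (vertical) in 5 comparisons, with the SE as a bar; filled points have a limma adjusted p under 0.05. The filled points are Ctsb in KA_H against KA_L, Ctsd in APOE_H against KA_H, and Ctsd, Ctsb, Ctsz and Ctsa in APOE_H against APOE_L.

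The make-up of the cathepsin transcripts differed between APOE_H and the other groups. In the 12 libraries outside APOE_H, Ctss held 42.4 to 61.5% of the summed TPM of the 8 cathepsins and Ctsd 13.8 to 26.9%. In APOE_H, Ctss held 20.7, 25.9 and 15.9% and Ctsd 46.9, 36.04 and 54.5%. Ctsd transcripts thus outnumbered Ctss transcripts in each APOE_H library, with ratios of 2.27, 1.39 and 3.43, and in no other library, where the ratio ran from 0.224 to 0.611. The share of Ctsb was 13.4 to 14.7% in APOE_H, 9.44 to 10.97% in KA_H and 2.83 to 7.70% in the 9 L libraries, with no overlap between these 3 sets. These shares describe the same values as above and were not tested.

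**Figure D3:**
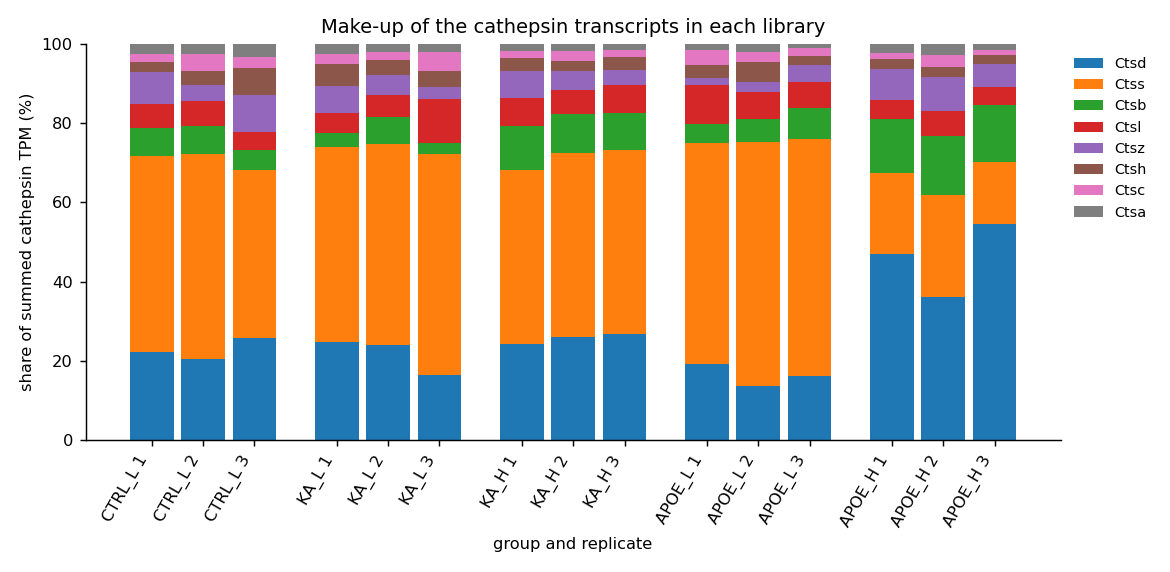
Share of the summed TPM of the 8 cathepsin genes (vertical, percent) held by each gene in each of the 15 libraries (horizontal). Ctss is the largest segment in the 12 libraries outside APOE_H, and Ctsd is the largest in the 3 APOE_H libraries.

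The balance between cystatin C transcripts and those of the cathepsins differed with it. The 8 cathepsins summed to 53089.8, 28382 and 47915 TPM in APOE_H, 20502, 14256 and 14158 TPM in KA_H, and 6583 to 18846 TPM in the L libraries. Cst3 exceeded that sum in all 12 libraries outside APOE_H, by a ratio of 3.68, 4.58 and 4.48 in CTRL_L, 2.79, 3.45 and 3.43 in KA_L, 1.85, 2.58 and 3.22 in KA_H, and 3.72, 4.50 and 2.59 in APOE_L. In APOE_H the ratio was 0.629, 1.21 and 0.316, so 2 of the 3 libraries held more cathepsin than Cst3 transcripts. The ratio includes Ctsd and Ctsa, which cystatins do not inhibit, and transcript ratios are not ratios of active protein. Together the 10 genes held 3.59 to 8.84% of all TPM in a library.

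**Figure D4:**
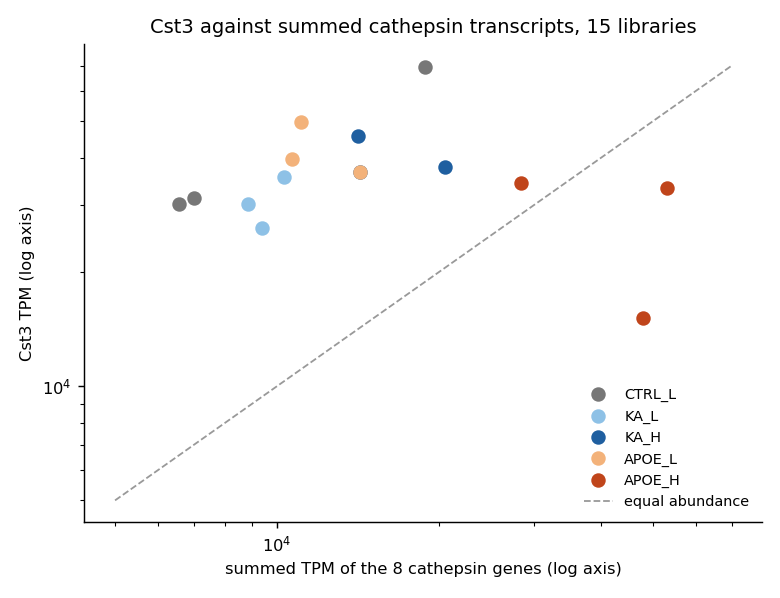
Cst3 TPM (vertical, log axis) against the summed TPM of the 8 cathepsin genes (horizontal, log axis) in 15 libraries; the dashed line marks equal abundance. APOE_H replicates 1 and 3 lie below the line and APOE_H replicate 2 just above it, and KA_H replicate 2 is hidden behind APOE_L replicate 3.

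Markers of other cells moved with the same contrasts, and because these are bulk samples, fewer cells of a type and less RNA per cell cannot be told apart. The 10 choroid plexus markers summed to 38538 to 59300.2 TPM in APOE_H and 33524 to 41701 TPM in KA_H, against 126 to 297 TPM in APOE_L and 57.6 to 1326 TPM in KA_L. Of these markers 10 of 10 rose in APOE_H against APOE_L and 5 of 10 in KA_H against KA_L. Of all tested entries, 4.7% and 1.23% were called higher in these contrasts. CTRL_L replicates 2 and 3 had choroid plexus sums of 39615 and 24154 TPM, with Ctsd at 1355 and 1812 TPM and Ctsb at 465 and 344 TPM. In those libraries Ctsz was at 272 and 654 TPM, Ctsa at 174 and 235 TPM, and Ctsh at 232 and 478 TPM. The choroid plexus sums of KA_H and APOE_H overlapped, and their Ctsd levels did not overlap. The part of choroid plexus RNA in the H against L results was not tested.

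The summed microglia markers were 38575 to 53298 TPM in APOE_H, 38370 to 44960.2 TPM in KA_H, 30606 to 30934 TPM in APOE_L, 16498 to 28095 TPM in KA_L and 18831 to 59164 TPM in CTRL_L. With each library centred on these markers, the differences between APOE_H and APOE_L were 2.78 for Ctsd, 2.71 for Ctsz, 2.54 for Ctsb and 1.96 for Ctsa on the log2 scale, and all 4 passed (limma adjusted p 0.000151 to 0.0335). The difference in Ctsd between APOE_H and KA_H was then 1.54 (adjusted p = 0.0378). The part of microglial RNA in the cathepsin results was not tested beyond this centring.

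The other marker lists were lower. Neutrophil and monocyte markers (10 genes) summed to 433 to 1329 TPM in KA_H, 84.0 to 1259 TPM in APOE_H and 0 to 235 TPM in the L libraries, with S100a8 and S100a9 called in KA_H against KA_L. Border macrophage markers (10 genes) summed to 197 to 829 TPM over all libraries, endothelial markers (10 genes) to 3.21 to 884 TPM and oligodendrocyte markers (10 genes) to 15.03 to 185 TPM. In APOE_H against APOE_L, 2 border macrophage markers, 1 endothelial and 1 of 18 microglia markers (C1qa) rose, beside 4.7% of all entries. The microglia log2 differences there ran from -1.24 to 2.26. In KA_H against KA_L, where Ctsb was called, 2 microglia markers (Tyrobp and C1qb) and 1 border macrophage marker (Pf4) rose. The share over all entries was 1.23%. The 18 microglia markers ran from -1.07 to 1.56 on the log2 scale there (median 0.22). Csf1r and Tmem119 were lower in every KA_H library than in any KA_L library. In APOE_H against KA_H, where Ctsd was called, 1 microglia marker (Tmem119) rose, beside 0.36% of all entries. The microglia differences there ran from -1.05 to 2.78. In H against L averaged, 4 microglia, 4 border macrophage, 3 endothelial and 2 neutrophil and monocyte markers rose, beside 7.72% of all entries. The median log2 difference of the microglia markers was 0.31 there, against 0.32 over all entries. The part of these cells in the cathepsin results was not tested.

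**Figure D5:**
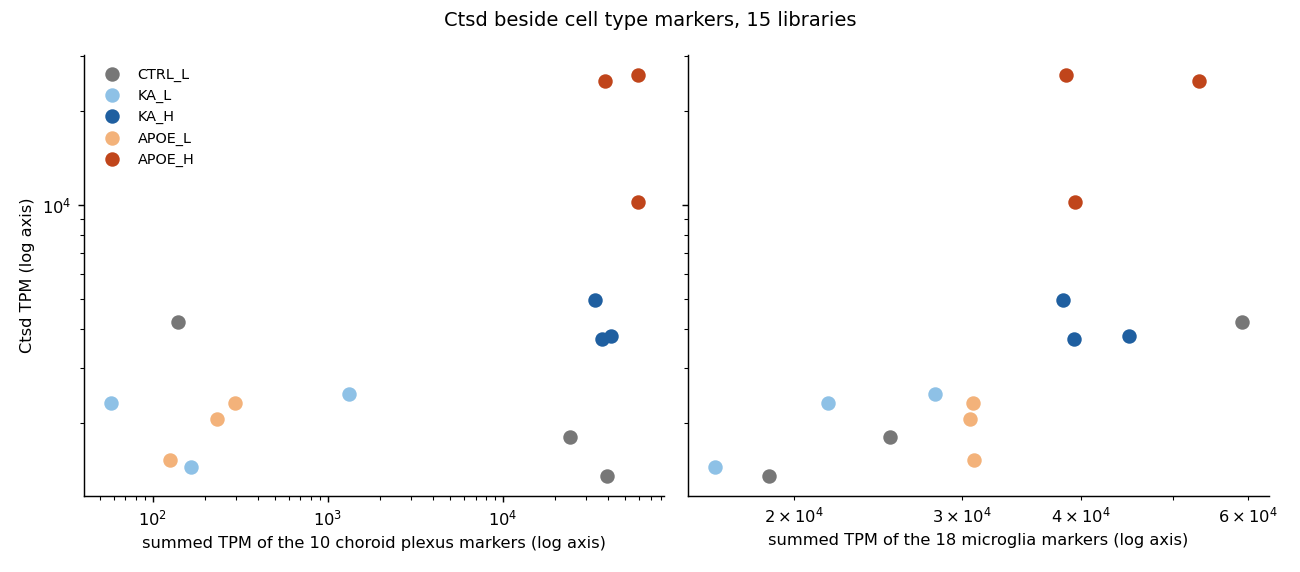
Ctsd TPM (vertical, log axis) against the summed TPM of the 10 choroid plexus markers (left) and the 18 microglia markers (right), log axes, 15 libraries coloured by group. The APOE_H libraries have high choroid plexus sums and the highest Ctsd, and the KA_L and APOE_L libraries have low choroid plexus sums and low Ctsd. CTRL_L replicates 2 and 3 and the KA_H libraries have high choroid plexus sums with Ctsd at 4975 TPM or lower. CTRL_L replicate 1 has the highest microglia sum with Ctsd at 4209 TPM.

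Of the 14 other cathepsin genes, 3 were tested (Ctse, Ctsf and Ctso), and the rest were at or near 0 in most libraries. Ctse, encoding the aspartic protease cathepsin E, rose in H against L averaged over KA and APOE by 2.76 (SE 0.70, limma adjusted p = 0.0193). Its level was 1.92, 14.4 and 13.05 TPM in KA_H and 18.2, 3.31 and 16.7 TPM in APOE_H, and 2.20 TPM or less in the L libraries. Ctsf and Ctso, cysteine cathepsins, passed in no comparison. Ctsf was at 184, 122 and 127 TPM in APOE_H and 26.03, 35.1 and 42.3 TPM in KA_H. KA_L held 248.95, 202.79 and 53.01 TPM of Ctsf, APOE_L 168.2, 36.69 and 4.34 TPM, and CTRL_L 102.87, 59.29 and 60.25 TPM. The Ctsf levels of APOE_H thus overlapped with those of KA_L and APOE_L. Cathepsin E, an aspartic protease like cathepsin D, was thus far below Ctsd in level.

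Among the 15 other cystatins, 2 were tested, Cst7 and Fetub. Cst7 encodes cystatin F, an inhibitor that acts inside lysosomes, on cathepsin C among others. It was at 0.21, 0.13 and 0.06 TPM in CTRL_L and at 331, 344 and 317 TPM in KA_L. In KA_H it was at 1323, 1287 and 2181 TPM, in APOE_L at 1398, 318 and 644 TPM, and in APOE_H at 1584, 1527 and 2189 TPM. By limma it rose in KA_L against CTRL_L (adjusted p = 4.15e-07) and in KA_H against KA_L (2.22, SE 0.53, adjusted p = 0.0463). Between APOE_H and APOE_L, the contrast in which 4 cathepsins rose, its log2 difference was 1.40 and did not pass. In H against L averaged over KA and APOE, Cst7 rose by 1.81 (SE 0.37, limma adjusted p = 0.00631). The stefin A genes Stfa1, Stfa2 and Stfa3, relatives of Cstb, were listed at 0 in all 15 libraries.

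Serpins include further inhibitors of cathepsins, and 6 of the 10 on the list were tested. In APOE_H against APOE_L, 2 rose, Serpine2 and Serpinh1, and in H against L averaged 4 rose (Serpine2, Serpinb9, Serpinh1 and Serpinb6a). Of all tested entries, 4.7% and 7.72% were called higher in these comparisons. Serpine2, encoding protease nexin 1, a secreted inhibitor of thrombin and related serine proteases, was at 1124, 672 and 923 TPM in APOE_H and 214, 200.1 and 201 TPM in APOE_L (2.11, SE 0.52, limma adjusted p = 0.0253). Serpinb9, the granzyme B inhibitor, was at 17.5, 33.0 and 30.1 TPM in KA_H and at most 0.06 TPM in KA_L (adjusted p = 0.0254). Serpinh1, a collagen chaperone without inhibitor activity, was at 12.9, 9.83 and 24.9 TPM in APOE_H and at most 0.15 TPM in APOE_L (adjusted p = 0.00792). Serpinb6a, a cytosolic inhibitor, was at 28.7, 69.04 and 60.05 TPM in APOE_H and 4.38, 3.64 and 22.9 TPM in APOE_L. CTRL_L held 25.3, 78.2 and 32.5 TPM of Serpinb6a. No serpin fell in any comparison.

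The genes that sort cathepsins to the lysosome or mature them numbered 18, of which 17 were tested. In APOE_H against APOE_L, 4 rose and none fell, with a median log2 difference of 1.99 against 0.54 over all entries. Of all tested entries, 4.7% were called higher there. Lgmn encodes legumain, the protease that converts single-chain cathepsins to their 2-chain form. It was at 2222, 1428 and 1403 TPM in APOE_H and 476, 622 and 464 TPM in APOE_L (1.67, SE 0.42, limma adjusted p = 0.0285). CTRL_L held 1863, 575 and 757 TPM of Lgmn. Psap encodes prosaposin, the saposin precursor that travels with procathepsin D. Its level was 1218, 786 and 1822 TPM in APOE_H and 263, 249.3 and 284 TPM in APOE_L (2.18, SE 0.43, adjusted p = 0.00832). Grn, encoding progranulin, whose products bind cathepsin D, was at 1892, 713 and 1446 TPM in APOE_H and 187, 185 and 309.9 TPM in APOE_L (2.50, SE 0.62, adjusted p = 0.0266). These 3 genes thus rose in the same contrast as Ctsd, a contrast that supplied no independent libraries.

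Cd63, a lysosomal membrane tetraspanin, rose both in APOE_H against APOE_L (2.36, SE 0.41, limma adjusted p = 0.00506) and in KA_H against KA_L (2.24, SE 0.41, adjusted p = 0.0142). It was at 1943, 2251 and 2257 TPM in APOE_H and 1399.98, 1393 and 1700.3 TPM in KA_H, against 246 to 764 TPM in the 9 L libraries. Of the sorting and maturation genes it was the only one called in KA_H against KA_L. Vps26a, a retromer subunit, rose in H against L averaged over KA and APOE (2.92, SE 0.87, limma adjusted p = 0.0424), as did Cd63 and Psap. Vps26a was at 67.5 to 92.1 TPM in APOE_H and 52.0 to 104 TPM in CTRL_L.

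The 22 lysosomal partners, enzymes, membrane proteins and pump subunits, were all tested. In APOE_H against APOE_L, 4 rose and none fell (Lamp1, Lamp2, Glb1 and Scpep1), with a median log2 difference of 2.38. Over all tested entries the median was 0.54, and 4.7% were called higher. Lamp1, a major lysosomal membrane glycoprotein, was at 1627, 857 and 1221 TPM in APOE_H and 189, 90.95 and 233 TPM in APOE_L (2.90, SE 0.54, limma adjusted p = 0.00629). Glb1, encoding the β-galactosidase that cathepsin A protects, was at 110.3, 65.3 and 97.1 TPM in APOE_H and 0.93, 9.80 and 2.38 TPM in APOE_L (4.44, SE 1.17, adjusted p = 0.0334). KA_L held 12.96, 2.61 and 113.04 TPM of Glb1, KA_H 34.45, 67.26 and 18.08 TPM, and CTRL_L 2.80, 6.52 and 6.46 TPM. Scpep1, a serine carboxypeptidase related to cathepsin A, was at 182, 145 and 178 TPM in APOE_H and 4.95, 25.7 and 17.2 TPM in APOE_L (3.56, SE 1.01, adjusted p = 0.0465). In H against L averaged, 8 of 22 rose, beside 7.72% of all entries, with Scpep1, Lamp1, Lamp2 and Npc2 having the smallest p-values. Npc2 was at 848, 857 and 817 TPM in APOE_H and 468, 423 and 373 TPM in KA_H, and at most 184 TPM in KA_L and APOE_L. CTRL_L held 458, 95.8 and 158 TPM of Npc2. Lamp2 was at 742 to 813 TPM in APOE_H and 659 to 777 TPM in CTRL_L.

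The genes most like each member were found by Spearman's rho over the 15 libraries among 14021 named genes, as a description. The libraries fall into groups that differ, so any gene that shares the group pattern ranks high, and all values come from the same libraries. Npc2, encoding the lysosomal cholesterol transfer protein, was the gene most like Ctsd (rho 0.954) and was also among the 3 most like Ctsz (0.914). C1qa, the complement gene expressed by microglia, tied with Tpbgl for the place nearest Ctsb (0.957 each). Pdia3, an endoplasmic reticulum disulfide isomerase, was nearest Ctsa (0.957), Lap3, a cytosolic aminopeptidase, nearest Ctsl (0.932) and followed by Serpine2 (0.921), and Itm2b, encoding the amyloid-related protein BRI2, nearest Ctss (0.921). The nearest genes were Dcaf11 for Ctsh (0.91), Tmem109 for Ctsc (0.861), the chemokine gene Ccl6 for Cstb (0.904) and Capza2 for Cst3 (0.839), with the microglial surface gene Cd53 next for Cst3 (0.821).

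Some members overlap other genes in the annotation, and the strand setting of the counting is not given in the sources used here. Ctsa overlaps Neurl2 and Pltp on the opposite strand, Ctsb overlaps Fdft1 and Ctsz overlaps Nelfcd, so reads of these pairs may not be told apart. The highest mean over the 15 libraries of an overlapping gene was 103 TPM for Ctsa, 16.4 TPM for Ctsb, 22.7 TPM for Ctsz and 7.18 TPM for Ctsd, whose overlap, with Gm49369, is on the same strand. Ctsh, Cst3 and Cstb overlap no annotated gene.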

How the data were processed

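RNA sequencing of 15 mouse brain libraries was analysed from the authors' deposited table of TPM values, which carries mouse Ensembl identifiers and assembled loci. Per the labels' protocols, RNA was extracted with Trizol and libraries were made from total RNA with a TruSeq kit. STAR and the build GRCh38, a human assembly name, are given per the submitters' processing notes. Which tool quantified the reads, with which annotation and strand setting, is not given in the sources used here. Library totals are equal and TPM keeps no depth, so the reads behind each value are unknown and no counting interval is given.

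Symbols came by identifier from GENCODE M21, which matched 52083 of 55416 Ensembl identifiers. The 17505 entries that reached 1 TPM in 3 or more libraries were analysed as log2(TPM + 1) by limma (version 3.58.1, R version 4.3.3), in 1 fit with a mean per group, 10 residual degrees of freedom and a mean-variance trend. The pseudocount of 1 understates changes of low genes. P-values were adjusted by Benjamini-Hochberg over all tested entries within each of 9 comparisons, with a threshold of 0.05. Comparisons share libraries, so their values are set side by side and not correlated. Means have the SD of 3 libraries.

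The members, the 5 lists of 79 related genes and the 8 marker lists were chosen with earlier results of these data known. Named genes were the 10 members, related genes called in at least 1 comparison (up to 4 per list and comparison, by smallest p) and the 3 genes most like each member. A few genes outside this rule (Ctsf, Ctso, Fetub and the stefin A genes) and the marker genes were named after their values were seen. The alternatives were other pseudocounts, filters, scalings, fits and variance models, a replicate block, and leaving out each library.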

Additional observations from a re-analysis of the deposited data

Results flagged for a closer look

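The Cst3 values of the APOE and KA groups lay in opposite orders in L and H, and neither difference passed the test (0.46, SE 0.29, limma adjusted p = 0.808 in L; -0.62, SE 0.29, adjusted p = 0.579 in H). In L, all 3 APOE libraries were above all 3 KA libraries (36819.7 to 49839.8 against 26204 to 35535 TPM), and in H all 3 APOE libraries were below all 3 KA libraries (15149 to 34425 against 36765 to 45644 TPM). The share of all tested entries with either separation was not counted. The interaction was -1.08 on the log2 scale (SE 0.42, unadjusted p = 0.0191 by limma) and did not pass after adjustment over all entries (adjusted p = 0.512). Without APOE_H replicate 3 it was -0.69 (adjusted p = 0.751), and over 23 alternatives the adjusted p ran from 0.229 to 0.813, with the same sign in each. The difference in L was 0.00 in 1 of its 17 alternatives.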

How the results depend on the processing

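The 4 members called in APOE_H against APOE_L were called in all 17 alternatives, which counted 4 or 5 members. The count of 1 in KA_H against KA_L (Ctsb) became 0 with a pseudocount of 5, no filter, named genes only, microglia-marker centring, quantile normalization, only the compared groups in the fit, or no variance trend, and ran from 0 to 1 over the fits without 1 library. The count of 1 in APOE_H against KA_H (Ctsd) became 0 with no filter, only the compared groups or no variance trend, became 2 with microglia-marker centring (Ctsd higher, Cst3 lower), and ran from 0 to 1 without 1 library. KA_H against CTRL_L gave 0 to 1 without 1 library (Ctss without CTRL_L replicate 1). H against L averaged fell from 5 to 3 members without the variance trend. The causes were not tested. Of 217 values of called members under alternatives, 181 kept their call, 36 lost it and none changed sign; of 79 uncalled values, 31 changed sign somewhere and 4 were called somewhere.

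Counts over all entries moved more. Over the 11 alternatives that kept all libraries, APOE_H against APOE_L gave 470.0 to 1562 calls (1076 in the report's fit), H against L averaged 1048 to 2108 (1782), KA_H against KA_L 3 to 393 (260), APOE_H against KA_H 0 to 98 (93), KA_L against CTRL_L 0 to 115 (100), KA_H against CTRL_L 3 to 136 (66), APOE_L against KA_L 1 to 13 (8), APOE against KA averaged 2 to 9 (3) and the interaction 0 to 24 (8). Leaving out 1 library gave 429 to 766, 1187 to 1838, 38 to 300, 50 to 120, 66 to 232, 17 to 52, 8 to 68, 2 to 16 and 0 to 22 in the same order. Scaling moved the median of all entries in APOE_H against APOE_L from 0.54 to 0.04 with microglia-marker centring and to -0.06 with quantile normalization. The share of calls that were higher went from 76.4% to 50.9% and 57.6% there, and from 67.7% to 3.45% and 40.0% in APOE_H against KA_H (53.1% with upper-quartile scaling). In H against L averaged it went from 75.9% to 59.5% and 57.6%. In KA_L against CTRL_L it went from 30% to 55.4% with centring and 41.9% with upper-quartile scaling, and in KA_H against CTRL_L from 83.3% to 98.2% with centring.

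With a replicate block, KA_H against KA_L had 0 members called and 181 entries in place of 260, and KA_H against CTRL_L 19 entries in place of 66. Deviations of same-numbered libraries correlated at -0.0263 to 0.0365 over 30 pairs, and those of other numbers at -0.0459 to 0.0222 over 60. With only 3 libraries a group, these correlations cannot show whether same-numbered libraries share an animal or a batch. The block changed no other count of called members by more than 1.5 times. Depth is unknown, and 3 libraries a group limit what could be detected.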
